A study of Homo sapiens with 12 samples.

Results

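YAP1, its paralog WWTR1 (TAZ), the 4 TEAD proteins they bind and 4 genes used as readouts of the complex (CCN1, CCN2, ANKRD1 and AMOTL2) were followed through 2 neuroblastoma lines treated with an inhibitor of METTL3. The 10 genes were taken by name from the 19923 genes counted in each library, and all 10 were present under these names. SK-N-BE2 and NGP are established human neuroblastoma lines with amplified MYCN, labelled wild type. They were kept for 6 days with STM2457, at 12 µM in SK-N-BE2 and 1 µM in NGP, or with DMSO, the solvent control. STM2457 inhibits METTL3, which places the m6A mark (N6-methyladenosine) on messenger RNA. Each of the 4 groups held 3 libraries of polyadenylated RNA, 12 in all. The labels do not say that replicates came from separate cultures, so p-values measure the spread between these libraries.

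As background, YAP1 and TAZ are coactivators without a DNA-binding domain of their own. In the Hippo pathway, MST kinases activate LATS kinases, which phosphorylate YAP1 and TAZ and hold them in the cytoplasm. When that hold is released, YAP1 and TAZ enter the nucleus and bind TEAD proteins, which carry the DNA contact. CCN1, CCN2 and ANKRD1 are classical targets, and AMOTL2 is a target that in turn binds YAP1 and restrains it. In neuroblastoma, YAP1 is known as a gene of the mesenchymal cell state and is low in adrenergic cells. Transcript levels do not show where the coactivator proteins are in the cell.

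Libraries held 47242379 to 58159937 reads. METTL3 transcript rose with STM2457 in both lines (log2 fold change 0.52 and 0.92 in SK-N-BE2 and NGP). Of 8 adrenergic markers, 7 averaged at least 1 CPM (counts scaled to library size, on a scale shared by all 12 libraries) in each group. Of 10 markers of the mesenchymal state or of fibroblasts, 8 averaged at least 1 CPM in both SK-N-BE2 groups and 7 in both NGP groups. The matrix genes of that list differed widely in level. The collagen gene COL1A2 had 2 to 9 reads per group, while COL1A1 averaged from 8.42 CPM (SK-N-BE2 DMSO) to 124 CPM (NGP STM2457). Group means ran from 5.86 to 34.4 CPM for LUM and from 20.8 to 314 CPM for FN1. Endothelial markers summed to between 7.11 and 11.2 CPM per library in SK-N-BE2 DMSO and between 5.90 and 7.79 CPM in SK-N-BE2 STM2457. In NGP they reached at most 0.0397 CPM with DMSO and 0.877 CPM with STM2457. Within SK-N-BE2, PECAM1 and VWF fell with STM2457 (log2 fold change -1.17 and -1.87) and CDH5 was not called (-0.18). Their part in the member changes was not tested. Immune markers summed to at most 1.41 CPM per library and epithelial markers to at most 2.94 CPM. Leaving out NGP DMSO replicate 1 raised the genes called in the NGP response from 5671 to 7897, and member results that change without it are given both ways. The lines were treated at different doses, and the file headers place their reads in different folders, which may mark separate batches. Line, dose and any such batch cannot be told apart in any comparison between the lines.

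The TEAD contact on DNA is known from the motif GGAATG, and it was searched on both strands (as GGAATG or CATTCC) in 300 bases around each start site, from RefSeq's promoter table for GRCh38.p14. Promoters were listed for 7 of the 10 genes, and CCN1, TEAD1 and TEAD4 had no entry. The motif was in the promoters of CCN2, ANKRD1, YAP1 and AMOTL2 (the second of its listed start sites) and in 14.0% of all 35116 promoters of the same length. CCN2 held 3 copies, starting 169, 104 and 95 bases before the start site, and ANKRD1 held 2, at 220 and 128 bases. The 250 bases before these start sites are shown because these targets carry the repeated motif and are the members that fell together in SK-N-BE2. They are written 5′ to 3′ on the gene's minus strand with the motif in capitals, for chr6:131951373-131951622 (CCN2) and chr10:90921088-90921337 (ANKRD1). The annotation used for the counts extends the first exon of ANKRD1 into this window.
CCN2: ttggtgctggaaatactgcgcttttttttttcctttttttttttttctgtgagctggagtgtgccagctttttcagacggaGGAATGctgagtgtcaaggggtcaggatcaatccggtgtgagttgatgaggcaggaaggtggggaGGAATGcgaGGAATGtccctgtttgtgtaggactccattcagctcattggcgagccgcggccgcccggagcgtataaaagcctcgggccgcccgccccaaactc
ANKRD1: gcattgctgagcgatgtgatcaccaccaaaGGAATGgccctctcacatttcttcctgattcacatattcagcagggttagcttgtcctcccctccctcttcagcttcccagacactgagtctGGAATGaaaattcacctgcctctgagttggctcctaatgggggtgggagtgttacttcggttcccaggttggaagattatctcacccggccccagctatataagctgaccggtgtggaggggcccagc
The motif found is a match of letters only, and no binding was measured.

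YAP1 (chromosome 11, 102110447 to 102233424, plus strand, GRCh38) was close to the limit of detection in both lines. In SK-N-BE2 the DMSO libraries held 23, 10 and 10 YAP1 reads and the STM2457 libraries 10, 26 and 8. In NGP they held 4, 8 and 11 reads with DMSO and 4, 2 and 6 with STM2457. The groups of each line overlapped. In SK-N-BE2 the log2 fold change was 0.03 with a 95% interval from -1.20 to 1.26 (edgeR quasi-likelihood adjusted p 0.969), an interval that reaches past a 2-fold change in both directions. NGP had too few reads for a test. Exons of YAP1 share 10.1% of their length with genes on the other strand, and the counts were made without strand, so part of these few reads may not be its own.

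WWTR1, the gene of TAZ (chromosome 3, 149517235 to 149736714, minus strand), was the more abundant coactivator transcript in SK-N-BE2 and was nearly unread in NGP. The SK-N-BE2 libraries measured 3.64, 2.90 and 3.48 CPM with DMSO and 6.09, 4.26 and 4.74 CPM with STM2457. Each treated library lay above the controls, although the gap was small. The antisense gene WWTR1-AS1 covers 9.7% of the WWTR1 exon length, so the WWTR1 value is uncertain by an amount that was not measured. The log2 fold change was 0.55 (± 0.18 SE, adjusted p 0.0185 by edgeR, 3 of 3 libraries higher). That call was lost without STM2457 replicate 1 (0.40, adjusted p 0.119), without DMSO replicate 2 (0.47, adjusted p 0.0523) and in a joint fit of the 12 libraries (0.59, adjusted p 0.220). In NGP the reads were 6, 9 and 0 with DMSO and 24, 12 and 5 with STM2457. These NGP groups overlapped and were not tested. Per kilobase of exon (RPKM, the CPM divided by exon length), WWTR1 reached 0.397 ± 0.0462 RPKM (SD, n = 3) against 0.0420 ± 0.0188 RPKM for YAP1 in SK-N-BE2 with DMSO. In NGP with DMSO the ranges of both genes overlapped.

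**Figure D1:**
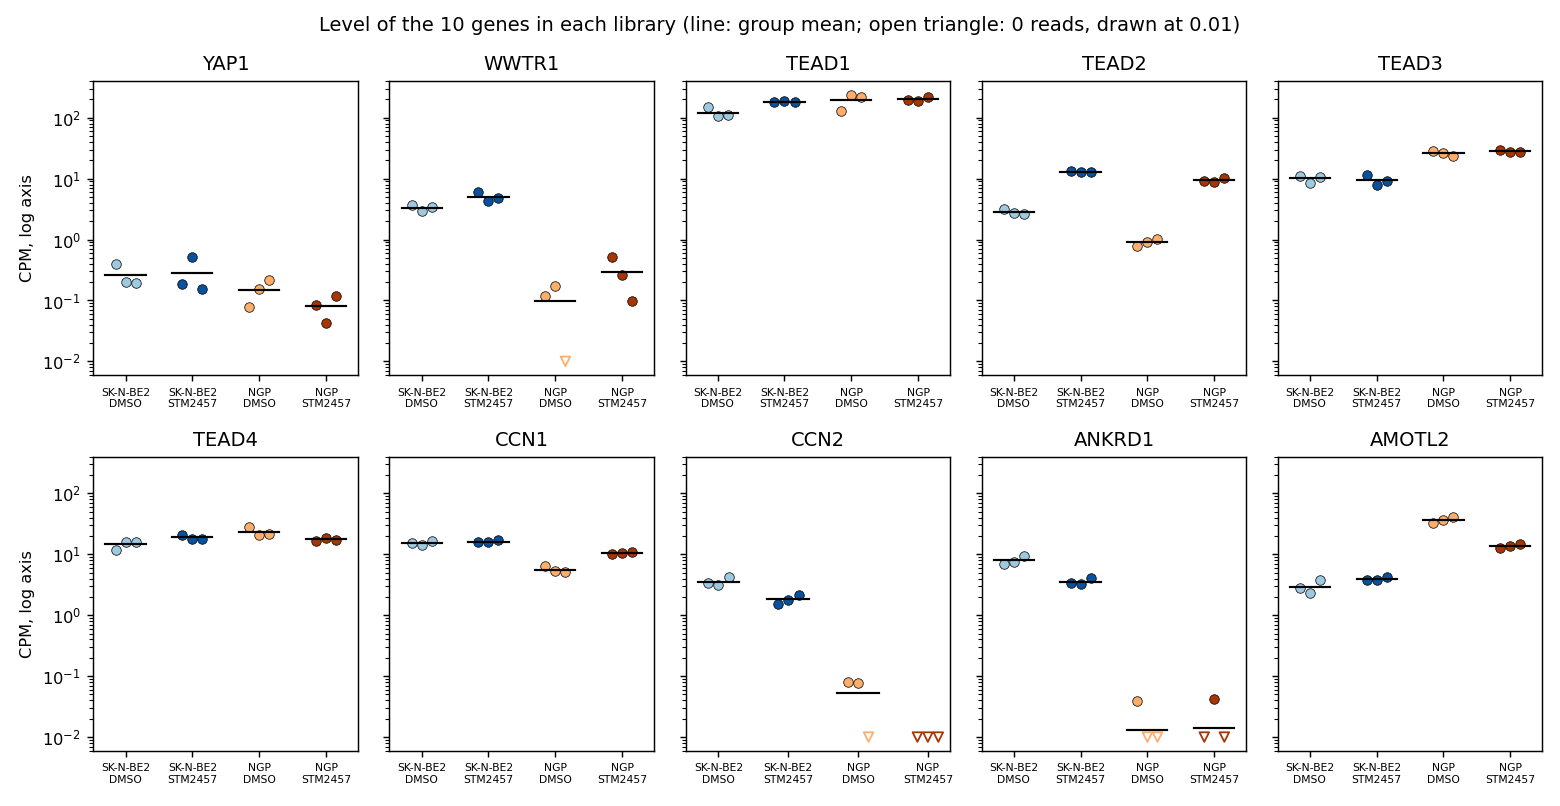
Level of each of the 10 genes in CPM on a log axis, 1 panel per gene, with 1 point per library, a line at each group mean and open triangles for libraries with 0 reads. TEAD2 rises from 0.902 to 9.35 CPM in NGP and from 2.86 to 13.0 CPM in SK-N-BE2, while CCN2 and ANKRD1 sit near 0 in NGP.

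Per kilobase of exon, each TEAD transcript was higher on average than either coactivator in all 4 groups. TEAD1 (chromosome 11, 12674421 to 12944737, plus strand) had the highest mean per kilobase of exon of the 10 genes in all 4 groups, from 11.3 ± 2.21 RPKM in SK-N-BE2 DMSO to 18.7 ± 1.51 RPKM in NGP STM2457 (SD, n = 3). TEAD4 came next in SK-N-BE2, overlapping CCN1 with DMSO. In NGP DMSO the ranges of TEAD1 and TEAD4, and of TEAD4 and TEAD3, overlapped.

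TEAD2 (chromosome 19, 49340595 to 49362457, minus strand) had the highest log2 fold change of the members tested in each line. In SK-N-BE2 it measured 3.22, 2.76 and 2.60 CPM with DMSO and 13.4, 13.0 and 12.7 CPM with STM2457. In NGP it measured 0.774, 0.900 and 1.03 CPM with DMSO and 9.04, 8.97 and 10.1 CPM with STM2457. Every treated library lay above every control of its line, with tight replicates. The log2 fold change was 2.15 in SK-N-BE2 (± 0.13 SE, adjusted p 4.21e-08 by edgeR) and 3.35 in NGP (± 0.18 SE, adjusted p 9.32e-06 by edgeR). The NGP response was the larger by 1.18 on the log2 scale, an SK-N-BE2 minus NGP difference of -1.18 (± 0.21 SE, adjusted p 0.000836 by edgeR). Exons of CD37, a leukocyte gene on the other strand, cover 10.7% of the exon length of TEAD2. The TEAD2 value is therefore uncertain by an amount that was not measured. In NGP, CD37 itself was read 11 times over the DMSO group and 12 times over the STM2457 group, against 138 and 1352 for TEAD2. In SK-N-BE2 it was read 70 and 115 times, against 457 and 2059 for TEAD2.

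TEAD1 rose in SK-N-BE2, from 148, 105 and 110 CPM with DMSO to 180, 186 and 179 CPM with STM2457. The log2 fold change was 0.55 (± 0.11 SE, adjusted p 0.00101 by edgeR), with 3 of 3 treated libraries above the controls. In NGP it measured 131, 238 and 217 CPM with DMSO and 197, 186 and 218 CPM with STM2457, and the groups overlapped. There the log2 fold change was 0.01 (± 0.20 SE, adjusted p 0.976 by edgeR). The low control was NGP DMSO replicate 1, and without it the log2 fold change turned to -0.21 (edgeR adjusted p 0.0440). The difference between lines in the TEAD1 response was not called (0.55, edgeR adjusted p 0.115) and was called without that library (0.76, adjusted p 0.00148).

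TEAD4 (chromosome 12, 2959330 to 3040676, plus strand) moved in opposite directions in the lines. In SK-N-BE2 it measured 11.7, 15.9 and 15.9 CPM with DMSO and 21.0, 18.1 and 17.8 CPM with STM2457. In NGP it measured 27.9, 20.4 and 21.4 CPM with DMSO and 16.4, 18.8 and 17.4 CPM with STM2457. The log2 fold change was 0.35 in SK-N-BE2 (± 0.13 SE, adjusted p 0.0368 by edgeR) and -0.43 in NGP (± 0.15 SE, adjusted p 0.0420 by edgeR). Groups did not overlap in either line, but both calls were near the threshold. For SK-N-BE2, leaving out DMSO replicate 1 or any one STM2457 replicate ended the call (adjusted p up to 0.153). The NGP call was lost without DMSO replicate 3, without any one STM2457 replicate (up to 0.150) and with the replicate number as a block (0.0785). The difference between the responses was called (0.79, ± 0.21 SE, adjusted p 0.0110 by edgeR) and stayed called in all 18 variations of the fit. TEAD3 (chromosome 6, 35473597 to 35497079, minus strand) was not called in SK-N-BE2 (log2 fold change -0.14, 95% interval -0.47 to 0.19, edgeR adjusted p 0.472). In NGP it had 0.09 (-0.16 to 0.34, edgeR adjusted p 0.552).

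**Figure D2:**
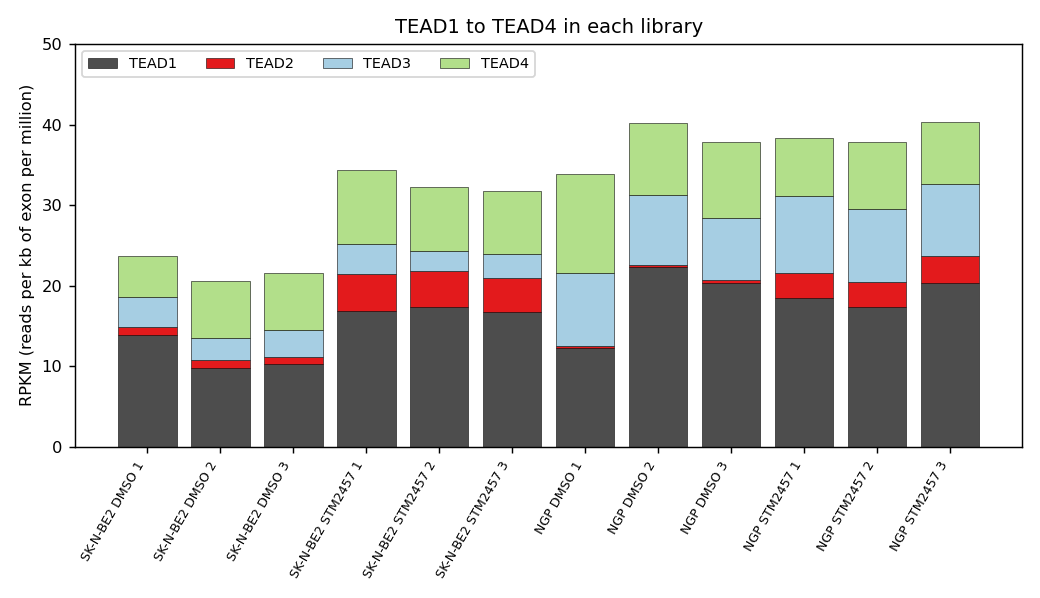
Stacked bars of TEAD1 to TEAD4 in each of the 12 libraries, in RPKM (CPM divided by the exon length in kilobases). The sum is higher with STM2457 in SK-N-BE2 (32.8 against 21.9) and the TEAD2 share is higher with STM2457 in both lines.

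The makeup of the family shifted with these changes. Summed per kilobase of exon, the 4 TEAD transcripts reached 21.9 ± 1.62 RPKM with DMSO and 32.8 ± 1.34 RPKM with STM2457 in the SK-N-BE2 libraries (SD, n = 3), which did not overlap (exact two-sided permutation p 0.1, the smallest that 3 against 3 allows). In NGP the sum was 37.3 ± 3.15 RPKM with DMSO and 38.8 ± 1.33 RPKM with STM2457, with overlap (exact two-sided permutation p 0.500). TEAD2 made up 4.37% ± 0.284 of the sum with DMSO and 13.3% ± 0.175 with STM2457 for SK-N-BE2. For NGP the shares were 0.811% ± 0.0901 and 8.09% ± 0.250 (SD, n = 3). TEAD1 made up between 48.2% and 51.9% of the sum as a mean of each group. Single libraries ran from 36.1% to 58.3% for TEAD1, and the lowest was NGP DMSO replicate 1, which also had the highest TEAD4 share (36.2%).

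The 4 targets did not move together. CCN2 and ANKRD1, the genes shown above with repeated motifs, fell in SK-N-BE2 and were almost unread in NGP. CCN2 (chromosome 6, 131948176 to 131951372, minus strand), a secreted matrix-associated protein also known as CTGF, measured 3.32, 3.10 and 4.19 CPM in the DMSO libraries of SK-N-BE2 and 1.51, 1.80 and 2.19 CPM in the STM2457 libraries. The treated libraries all lay below the controls. The log2 fold change was -0.98 (± 0.21 SE, adjusted p 0.00163 by edgeR). The NGP libraries held 4, 4 and 0 CCN2 reads with DMSO and 0 in each with STM2457, too few to test. A count of 0 over the NGP STM2457 group allows up to 0.0208 CPM, counting error only. A long noncoding gene on the other strand covers 11.9% of the CCN2 exon length. The CCN2 value is therefore uncertain by an amount that was not measured.

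ANKRD1 (chromosome 10, 90912096 to 90921276, minus strand), a nuclear ankyrin-repeat protein known from stretched muscle, measured 7.03, 7.45 and 9.41 CPM in the DMSO libraries of SK-N-BE2 and 3.32, 3.28 and 4.09 CPM in the STM2457 libraries. The treated libraries again lay below every control. The log2 fold change was -1.19 (± 0.16 SE, adjusted p 4.17e-05 by edgeR). In NGP a single library of each group had 2 ANKRD1 reads and the others had 0.

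CCN1 (chromosome 1, 85580761 to 85583950, plus strand), the paralog of CCN2 also known as CYR61, behaved differently. In SK-N-BE2 it measured 15.6, 14.0 and 16.8 CPM with DMSO and 15.7, 15.8 and 17.0 CPM with STM2457. Those groups overlapped, and the log2 fold change of 0.03 had a 95% interval from -0.20 to 0.25 (edgeR adjusted p 0.844). In NGP it measured 6.37, 5.32 and 5.13 CPM with DMSO and 10.1, 10.5 and 10.8 CPM with STM2457. Here every treated library lay above the controls, with a log2 fold change of 0.88 (± 0.14 SE, adjusted p 0.00174 by edgeR). The SK-N-BE2 minus NGP difference was -0.84 (± 0.17 SE, adjusted p 0.00204 by edgeR).

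AMOTL2 (chromosome 3, 134355874 to 134375479, minus strand), an angiomotin family protein, fell in NGP. It measured 32.8, 37.0 and 40.6 CPM with DMSO and 12.6, 13.7 and 14.5 CPM with STM2457, a log2 fold change of -1.46 (± 0.12 SE, adjusted p 6.82e-05 by edgeR). All treated NGP libraries lay far below the controls. In SK-N-BE2 it measured 2.85, 2.31 and 3.73 CPM with DMSO and 3.73, 3.85 and 4.24 CPM with STM2457, with a log2 fold change of 0.37 (± 0.20 SE, adjusted p 0.125 by edgeR). It was called there without DMSO replicate 3 (0.57, adjusted p 0.0332). The SK-N-BE2 minus NGP difference was 1.84 (± 0.22 SE, adjusted p 3.20e-05 by edgeR).

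**Figure D3:**
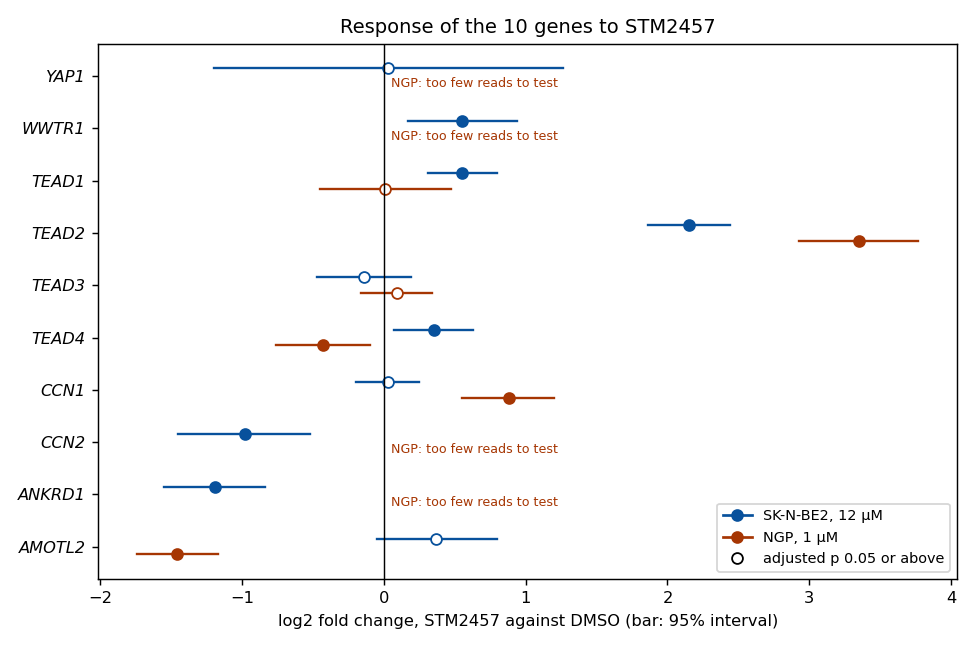
Log2 fold change of each member, STM2457 against DMSO, with its 95% interval, in SK-N-BE2 (blue) and NGP (dark orange), with open points for adjusted p of 0.05 or above. TEAD2 is at 2.15 and 3.35, CCN1 differs from 0 in NGP, and AMOTL2 is at -1.46 in NGP and 0.37 in SK-N-BE2.

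Counted over the members, 6 of 10 were called in SK-N-BE2, 4 higher (WWTR1, TEAD1, TEAD2 and TEAD4) and 2 lower (CCN2 and ANKRD1), where 54.7% of all genes tested were called, 26.9% higher and 27.8% lower. In NGP, 6 of the 10 had enough reads to test and 4 were called, TEAD2 and CCN1 higher and TEAD4 and AMOTL2 lower. There 41.7% of all genes tested were called, 19.4% higher and 22.2% lower. The difference between the responses was called for 4 members, with NGP more positive for TEAD2 and CCN1 and SK-N-BE2 more positive for TEAD4 and AMOTL2, against 30.9% of all genes, 13.9% and 17.0% in those directions. With backgrounds of this size, the counts do not set the members apart from other genes. The median log2 fold change of the 10 members in SK-N-BE2 was 0.19 against -0.02 over all genes tested, and that of the 6 tested in NGP was 0.05 against -0.03.

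In NGP, 6 of the 9 tested markers of the mesenchymal state or fibroblasts rose with STM2457, where 19.4% of all genes were called higher and 22.2% lower. The other 3 were not called (log2 fold change 0.21 for PRRX1, 0.53 for FOSL1 and -1.16 for CD44). The summed level of the list went from between 215 and 277 CPM to between 843 and 898 CPM. FN1 alone averaged 20.8 CPM with DMSO and 314 CPM with STM2457, a large part of that rise. In SK-N-BE2, 4 of the 8 tested rose and 1 (VIM) fell, where 26.9% of all genes were called higher and 27.8% lower. The sums overlapped, from 928 to 1030 CPM with DMSO and from 916 to 989 CPM with STM2457. VIM alone averaged 776 CPM with DMSO and 674 CPM with STM2457. The sums in SK-N-BE2 thus mostly follow VIM and not the 4 markers that rose. The part of these markers in the member changes was not tested. In bulk RNA, a change in the number of cells of a type and a change in RNA per cell cannot be told apart.

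Without treatment (DMSO), TEAD2 and CCN1 were higher in SK-N-BE2, and TEAD1, TEAD3, TEAD4 and AMOTL2 were higher in NGP (edgeR, contrast of the 4 group means over 12 libraries). Of all genes tested, 71.1% were called, 35.7% higher in SK-N-BE2 and 35.4% lower. By length-scaled level, the SK-N-BE2 DMSO order was TEAD1, TEAD4, CCN1, ANKRD1, TEAD3, CCN2, TEAD2, AMOTL2, WWTR1 and YAP1, where TEAD4 overlapped CCN1, ANKRD1 overlapped TEAD3 and AMOTL2 overlapped WWTR1. In NGP DMSO it was TEAD1, TEAD4, TEAD3, AMOTL2, CCN1 and TEAD2, followed by YAP1, CCN2, WWTR1 and ANKRD1, which overlapped their neighbours near 0. WWTR1, CCN2 and ANKRD1 were also called higher in SK-N-BE2, but they passed the filter on low counts through that line alone, so these calls support nothing and the reads are given instead. ANKRD1 had 1264 reads in SK-N-BE2 DMSO and 2 in NGP DMSO, which is 607 times the level (exact 95% interval for counting error 168 to 5020). CCN2 had 563 and 8 reads (67.6 times, 34.1 to 157), and WWTR1 had 534 and 15 (34.2 times, 20.5 to 61.5). AMOTL2 went the other way, at 2.96 ± 0.714 CPM in SK-N-BE2 and 36.8 ± 3.93 CPM in NGP (SD, n = 3), a log2 difference of -3.63 (± 0.17 SE, adjusted p 1.12e-10 by edgeR). On the log2 scale CCN1 had an excess of 1.46 for SK-N-BE2 (± 0.12 SE, adjusted p 7.66e-08 by edgeR) and TEAD3 lower (-1.37, ± 0.14 SE, adjusted p 9.51e-07 by edgeR). YAP1 was the member not called (0.82, edgeR adjusted p 0.244).

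The upstream arm of the pathway was described with 15 kinases and adaptors. MST kinases and SAV1 activate the LATS kinases with their MOB1 partners, and NF2, WWC and FRMD6 proteins bring them to the membrane. In SK-N-BE2, 7 of the 15 were called, 4 higher and 3 lower, against 54.7% of all genes tested, 26.9% higher and 27.8% lower. The list median was 0.14 on the log2 scale against -0.02 over all genes. MAP4K4 (a kinase that can act beside MST), FRMD6, MOB1B and TAOK2 rose by 0.69, 0.54, 0.48 and 0.40 on the log2 scale. SAV1, LATS1 and WWC1 had -0.50, -0.40 and -0.28, and SAV1 is uncertain because the other-strand gene ATL1 covers 31.9% of its exons. Leaving out single libraries ended the WWC1 call of SK-N-BE2 in 4 of 6 cases (DMSO replicates 2 and 3, STM2457 replicates 1 and 3, adjusted p up to 0.145), and the joint fit ended that of LATS1 (adjusted p 0.0946). In NGP, 7 of the 14 tested were called, 6 higher and 1 lower, against 41.7% of all genes, 19.4% higher and 22.2% lower. The median there was 0.16 against -0.03. The totals called lie near the shares of all genes in both lines. By direction, the NGP list had more genes higher and fewer lower than those shares. With 14 genes, nothing particular to the list is read from this. STK3 (MST2), FRMD6, MOB1A and MAP4K4 rose by 0.92, 0.80, 0.72 and 0.43. WWC1 (KIBRA) fell from 122 ± 0.525 to 48.7 ± 2.79 CPM (SD, n = 3), or -1.35 as log2 fold change (edgeR adjusted p 2.70e-05). LATS2 had 202 reads in SK-N-BE2 DMSO and 0 reads in both NGP groups.

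Proteins that bind the coactivators or TEADs form the next list. Of the 7 listed, 4 could be tested in each line, and these 4 were called higher in each (list medians 0.77 for SK-N-BE2 and 1.06 for NGP, against -0.02 and -0.03 over all genes). The share of all genes called higher was 26.9% for SK-N-BE2 and 19.4% for NGP. With 4 genes a line, nothing particular to the list is read from this. VGLL4, which competes with YAP1 for TEAD, rose by 1.10 in SK-N-BE2 (edgeR adjusted p 9.20e-07) and by 0.69 in NGP (edgeR adjusted p 0.00509), with 23.7% of its exon length covered by other-strand genes. AMOT, an angiomotin that binds YAP1, rose by 0.54 and by 1.42 (edgeR adjusted p 0.00315 and 0.000132), with the larger response in NGP (difference -0.86, edgeR adjusted p 0.00299), and its relative AMOTL1 by 0.44 and 0.38. The NGP call of AMOTL1 was lost with the replicate number as a block (adjusted p 0.0554) and without DMSO replicate 3 or any one STM2457 replicate (up to 0.129). PTPN14, a phosphatase that binds YAP1, rose by 1.00 in SK-N-BE2. VGLL3, a TEAD cofactor, rose by 2.22 in NGP, from 0.548 to 2.61 CPM. AMOTL2, the angiomotin among the members, moved the other way in NGP.

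Beyond the members, 18 other genes of a published signature of YAP and TAZ targets were examined. LATS2 and PTPN14 stand in this list and in those above. In SK-N-BE2, 11 of 17 tested were called, 8 higher and 3 lower. Of all genes tested in that line 54.7% were called, 26.9% higher and 27.8% lower. In NGP 8 of 13 were called, 7 higher and 1 lower. Of all genes tested in NGP 41.7% were called, 19.4% higher and 22.2% lower. The higher genes thus made up more of the list than of all genes in both lines. With a list this short, nothing particular to it is read from these counts. Of the 8 higher in SK-N-BE2, AXL passed the filter on low counts through the STM2457 group alone. It had 4 to 11 reads per DMSO library and 24 to 30 with STM2457, so its call supports nothing. The list medians were 0.27 and 0.51 on the log2 scale, against -0.02 and -0.03 over all genes. IGFBP3, which binds insulin-like growth factors, rose in both lines (1.89 and 1.72), and GADD45A, a stress-response gene, fell in both (-1.22 and -1.40). In SK-N-BE2 the ectonucleotidase gene NT5E, PTPN14 and FJX1 also rose, by 1.32, 1.00 and 0.95. The kinase gene NUAK2 fell there from 3.93 ± 0.496 to 0.752 ± 0.117 CPM (SD, n = 3), or -2.42 as log2 fold change (edgeR adjusted p 1.55e-06). F3, the gene of tissue factor, fell in SK-N-BE2 (-0.91) and rose in NGP (1.28), a difference of -2.17 (edgeR adjusted p 2.46e-05). CCDC80 and ARHGEF17 rose in NGP by 1.14 and 0.89.

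**Figure D4:**
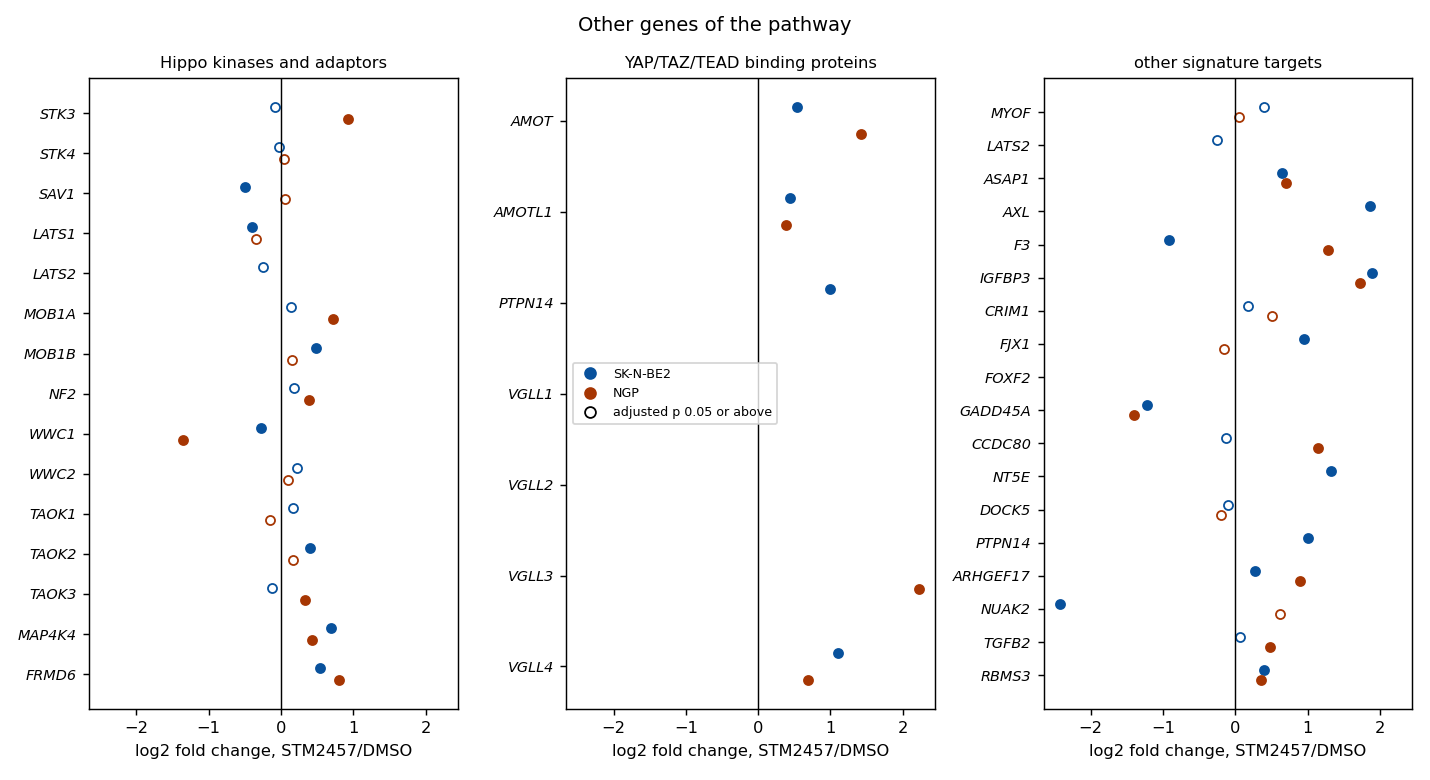
Log2 fold change with STM2457 of each tested gene in 3 lists (Hippo kinases and adaptors, binding proteins, other signature targets), SK-N-BE2 in blue and NGP in dark orange, with open points for adjusted p of 0.05 or above and no point for genes with too few reads. All 8 points of the binding proteins lie to the right of 0. F3 has filled points on both sides, while other genes with points on both sides, such as NUAK2, have an open point in a line.

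Since the compound blocks m6A, the members' transcripts were scanned for GGACT, the best known core of the m6A motif. In the GENCODE 44 canonical transcripts CCN1 held 5 copies, or 2.19 per kilobase, and AMOTL2 held 7, or 1.44 per kilobase, both above the upper quartile of 1.40 over 20046 protein-coding transcripts. CCN2 held 0 copies and ANKRD1 held 1 (0.56 per kilobase). TEAD2 held 2 copies, 0.92 per kilobase, equal to the median of all transcripts. The members called in a line thus ran from 0.00 copies per kilobase (CCN2) to 2.19 (CCN1), and methylation itself was not measured in these libraries.

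The genes most like 4 of the members in pattern were found by the root mean square difference between log2 CPM profiles over the 12 libraries, each centred on its own mean. For CCN2 they were PTGIR, MARC2 and VSTM2L (0.33, 0.35 and 0.37), where CCN2 itself varied by 2.26 around its mean, and the nearest other member was ANKRD1. For WWTR1 they were GSDMD, NOS2 and PTPN14 (0.35, 0.38 and 0.45, against 2.11), and the nearest other member was CCN2. For CCN1 they were CMTM3, FKBP10 and CTSA (0.10, 0.12 and 0.12, against 0.61). HBP1, RGS17 and UNC79 were nearest to YAP1 (0.30, 0.32 and 0.32, against 0.57), whose few reads make its profile noisy. The 12 libraries fall into 2 lines, and this measure does not separate the line from the treatment.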

How the data were processed

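RNA was measured in 12 libraries, whose titles give the groups. The authors ran featureCounts 2.0.5, per the file headers, on exons of protein-coding genes of GENCODE 33, in paired mode, with no option set for strand, multi-mapping reads or counting pairs as 1. The deposited values are whole-number counts, not normalized. The submitters' processing notes list HISAT2 2.1.0, Trimmomatic 0.36 and Subread 1.5.3, and GRCh38. Because both reads of a pair can be counted, counting intervals are too narrow, and they cover counting error only. The exon length per gene, in bases, is the deposited length column.

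The members and lists were chosen with earlier results of these data known. With edgeR 4.0.16 (R 4.3.3), each line was fitted on its own 6 libraries, and line differences as contrasts of 4 group means over 12 (filterByExpr, minimum count 10, TMM, quasi-likelihood test, Benjamini-Hochberg over all genes tested, threshold 0.05). Standard errors come from the fold change and its F statistic. CPM use the TMM scale of 12 libraries, RPKM divide by exon length, and profiles used log2(CPM + 0.1). Changes are relative to the other transcripts. From each list, the up to 4 called genes per line and direction with the largest change were named. Only genes with at least 1 CPM in the higher group were taken. LATS2, CD37, AXL and the single cell type markers were named after their values were seen. Exon overlaps were taken from GENCODE 44. DESeq2 1.42.0 and the other variations are given in the closing section. The fits were tested on simulated data.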

Additional observations from a re-analysis of the deposited data

Results flagged for a closer look

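The responses of 4 members differed between the lines in a test of the difference itself (edgeR quasi-likelihood, SK-N-BE2 minus NGP on the log2 scale): TEAD2 (-1.18), TEAD4 (0.79), CCN1 (-0.84) and AMOTL2 (1.84). For TEAD2 both lines rose and NGP rose more, for TEAD4 the lines moved in opposite directions, and CCN1 and AMOTL2 were called in NGP and not in SK-N-BE2. Each of these differences stayed called in all 18 variations of the fit. Line, dose and any batch that goes with the separate folders cannot be told apart.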

How the results depend on the processing

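Over the 10 members, 4 comparisons and all variations (DESeq2 size factors, no filter, at least 1 CPM, DESeq2, halved counts, replicate block, a joint fit for each line, and each library left out), 562 values were computed. Of these, 546 kept their side of the threshold, 12 lost a call, 3 gained one and 1 both turned its sign and became a call, which was TEAD1 in NGP without DMSO replicate 1 (leaving out each library in turn gave -0.21 to 0.18). Values that were never called also crossed 0, with ranges of -0.69 to 0.47 for YAP1 and -0.04 to 0.09 for CCN1 in the SK-N-BE2 response, and -3.92 to 1.52 for ANKRD1 in the difference in response. The losses were of WWTR1 and TEAD4 in SK-N-BE2 and of TEAD4 in NGP. Members called ran from 4 to 7 in SK-N-BE2, 3 to 5 in NGP and 4 to 5 for the difference in response. Over all genes, those called ran from 6497 to 7849, 3816 to 7897 and 3701 to 6274 in the same comparisons. For the lines with DMSO, 9 members were called in each variation, where 9207 to 11072 genes were called. Those 9 include WWTR1, CCN2 and ANKRD1, whose calls support nothing, as said above. Without NGP DMSO replicate 1, the Hippo kinases and adaptors called for the difference in response went from 5 to 8 of 15. Of all genes tested, 30.9% were called for that difference in the main fit, and their number varied as just given. Nothing particular to the list is read from this rise. Replicate numbers did not pair the libraries (same-numbered deviations correlated at -0.15, 0.14 and 0.00 for SK-N-BE2, and at 0.00, -0.16 and 0.07 for NGP). With the replicate block the SK-N-BE2 response had 6 members and 7559 genes called, against 7665 genes without it. The NGP response had 3 members and 5057 genes, against 5671. Depth limits the genes with few reads (YAP1 in both lines, and WWTR1, CCN2 and ANKRD1 in NGP).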
